A study of Mus musculus with 15 samples.

Results

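Txnrd1 and 9 other genes of the NRF2 system were examined in mouse kidney, 10 genes in all. Of these, 9 are among the 13940 genes with an annotated transcript in the files of all 15 mice. The members were a fixed list of symbols: Txnrd1, Srxn1, Gclc, Gclm, Gsr, Slc7a11, Nqo1, Hmox1, Nfe2l2 and Keap1. Transcript identifiers were joined to gene symbols through GENCODE release M21, and the transcripts of a gene were summed. The list was chosen by the Txnrd1 values of these same mice, which had been seen to differ between the groups, so Txnrd1 is described here without a test and the other members carry the tests. Slc7a11, the light chain of the cystine transporter, has 5 annotated transcripts, and none of them was listed in any file, so its level was not analysed here.

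All 15 animals were male wild-type C57BL/6 mice, 8 weeks old when purchased, and each of the 3 groups held 5 mice. Control mice carried a subcutaneous osmotic pump that delivered saline for 28 days and received water by gavage. Ang II mice received angiotensin II from the pump at 500 ng/kg/min, and Ang II + QDG mice received the same infusion with Qingda granule, a Chinese herbal preparation, at 1.145 g/kg/day by gavage. The labels call the second treatment of the other groups saline, where the methods name double-distilled water. The mice given both agents are called QDG mice from here on. Whole renal tissue of each mouse gave 1 library, so fewer cells of a type and less RNA per cell cannot be told apart. The mice are numbered 1 to 5 within a group, and the numbers are names only and do not pair mice.

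NRF2, the product of Nfe2l2, is a transcription factor that KEAP1 holds in the cytoplasm and delivers for degradation. Oxidants and electrophiles modify KEAP1, and NRF2 then accumulates, pairs with a small MAF protein and binds antioxidant response elements near its target genes. These targets make glutathione, keep glutathione and thioredoxin reduced with NADPH, and detoxify quinones and haem. The proximal tubule, a cell type rich in mitochondria and exposed to filtered oxidants and xenobiotics, is known to use these systems.

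The values are FPKM (fragments scaled to transcript length and sequencing depth), so levels of different genes can be set side by side per length. The depth implied by the values was 68922800 to 81329600 reads or fragments per mouse. Proximal tubule markers were abundant in all 15 kidneys, with a summed level of 2700 to 4042 FPKM, and the 3 adrenal cortex markers were listed in none. Mitochondrial transcripts held 18.6% to 20.7% of the FPKM in Control, 15.4% to 16.0% in Ang II and 17.0% to 19.8% in QDG. Over the 12372 genes tested the median log2 fold change was 0.08 in Ang II vs. Control, −0.02 in QDG vs. Ang II and 0.06 in QDG vs. Control. Tests were limma's moderated test on log2(FPKM + 1), 1 fit of all 15 mice, and a gene was called at a Benjamini-Hochberg adjusted p under 0.05 over all genes tested.

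Txnrd1 encodes the cytosolic thioredoxin reductase, the selenoprotein that returns oxidised thioredoxin to its reduced form at the cost of NADPH. The gene (ENSMUSG00000020250) lies on the forward strand of chromosome 10 in GRCm38, from 82833951 to 82897712. GENCODE M21 annotates 8 transcripts, and 3 of them were listed in the files. ENSMUST00000219442 starts at 82860301 with a first exon of 330 bases. ENSMUST00000219962 starts 1094 bases upstream of it, at 82859207, with a first exon of 94 bases, and then splices to 107 bases that are the last part of the 330-base exon. ENSMUST00000020484 starts at 82859179, shares the splice site that ends the upstream exon at 82859300, and leaves out the 107 bases. All 3 transcripts share 12 exons with both ends and an identical coding sequence of 499 amino acids, and ENSMUST00000219962 ends 1105 bases before ENSMUST00000219442 in the last exon. They therefore differ in untranslated sequence only.

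**Figure D1:**
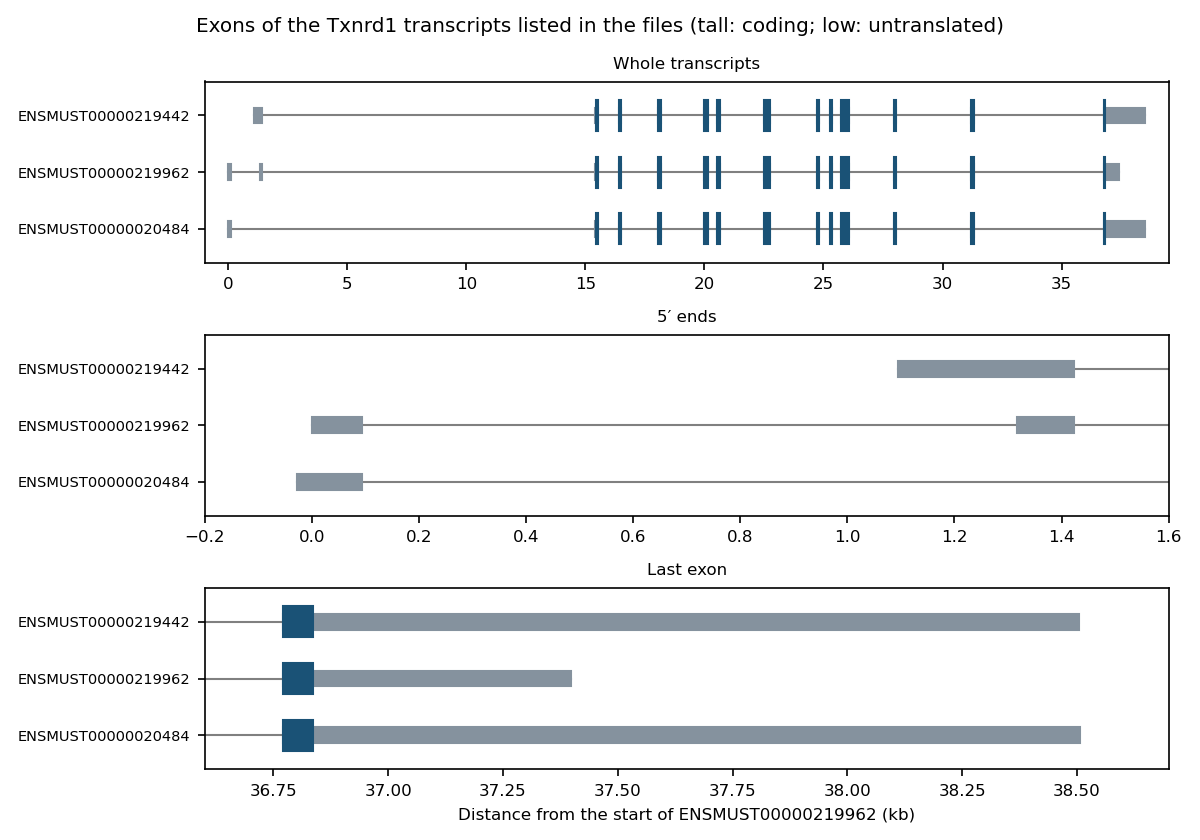
Exons of the 3 listed Txnrd1 transcripts in GENCODE M21, drawn to scale against the distance in kb from the start of ENSMUST00000219962, with whole transcripts at the top, the 5′ ends in the middle and the last exon below. Tall boxes are coding and low boxes untranslated; the coding boxes of the 3 transcripts line up, and the first exons and the 3′ end of ENSMUST00000219962 do not.

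The shared coding end is shown because it carries the residue that defines the enzyme. The capitals mark the in-frame TGA at codon 498, which is read as selenocysteine, and the last 3 letters are the stop codon (GENCODE M21 transcript sequence).
Txnrd1 coding end: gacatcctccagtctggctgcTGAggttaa

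The sequences before the starts are shown next, because the listed transcripts start at 2 places. RefSeq promoter windows on GRCm38.p6, which run from 250 bases before to 50 bases after an annotated start, were searched on both strands for the core of the antioxidant response element, TGACNNNGC, and for the AP-1 type site TGAGTCA. The windows of 7 members, Slc7a11 included, were available, 9 windows in all, 3 of them of Txnrd1. Gclc, Gsr and Hmox1 had no window and were not searched, and sequence farther than 250 bases upstream was not searched for any member. TGACNNNGC was found in 4 of the 9 windows and in 12.4% of all 32851 windows, and TGAGTCA was found in 1 of the 9 and in 5.20% of all. The window before the upstream Txnrd1 start, printed here to the base before the GENCODE start (chr10:82858956-82859178, forward strand), holds the core on its reverse strand, 92 bases before the RefSeq start, and the capitals mark it. The window before the start of ENSMUST00000219442 (chr10:82860091-82860300, forward strand) holds neither motif.
Txnrd1 upstream start: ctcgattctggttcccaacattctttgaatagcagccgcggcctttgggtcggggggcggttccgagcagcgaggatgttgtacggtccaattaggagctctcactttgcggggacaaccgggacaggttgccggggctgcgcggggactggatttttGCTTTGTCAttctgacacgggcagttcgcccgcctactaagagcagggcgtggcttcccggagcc
Txnrd1 downstream start: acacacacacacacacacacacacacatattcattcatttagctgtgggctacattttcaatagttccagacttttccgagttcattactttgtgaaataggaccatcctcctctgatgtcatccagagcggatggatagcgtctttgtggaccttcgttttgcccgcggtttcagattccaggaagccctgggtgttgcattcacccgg
A match is a description of the letters and not a binding site, and no binding was measured here. The core was also found in the windows of Gclm, 134 bases before the start, of Nfe2l2, 240 bases before it, and of Srxn1, 28 bases after it.

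ENSMUST00000219442 was the main Txnrd1 transcript, with 84.4% to 91.2% of the gene's FPKM in Control mice and 73.9% to 85.7% in Ang II mice. Its levels in mice 1 to 5 were 36.1, 47.9, 31.5, 46.1 and 49.5 FPKM in Control. They were 39.6, 39.3, 69.7, 58.4 and 52.9 FPKM in Ang II. They were 40.6, 52.5, 41.7, 47.4 and 39.4 FPKM in QDG. Ang II mice 3, 4 and 5 were higher than every Control mouse, Ang II mice 1 and 2 fell inside the Control range, and the groups overlapped in each comparison.

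ENSMUST00000219962, the transcript of the upstream start with the short 3′ end, had higher values in Ang II than in both other groups. Its levels were 4.63, 3.86, 4.87, 4.79 and 4.96 FPKM in Control. They were 12.9, 11.3, 12.4, 8.98 and 13.8 FPKM in Ang II. They were 5.74, 5.98, 5.12, 3.87 and 5.10 FPKM in QDG. Every Ang II mouse was above every mouse of both other groups, and Control and QDG overlapped. Implied reads numbered 720 to 894 per Control mouse, 1459 to 2434 per Ang II mouse and 623 to 1046 per QDG mouse. Its share of the gene's FPKM was 9.97% ± 2.19 (SD, n = 5) in Control, 18.9% ± 4.62 (SD, n = 5) in Ang II and 10.4% ± 1.79 (SD, n = 5) in QDG. Every exon base of this transcript also lies in an exon of ENSMUST00000020484 or ENSMUST00000219442. The level and the share therefore depend on how shared reads were divided between transcripts. The quantifier is not given, and that division was not tested.

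ENSMUST00000020484 also starts upstream and was the scarcest of the 3. Its levels were 0.887, 0.755, 0.954, 0.643 and 0.641 FPKM in Control. They were 1.09, 1.13, 1.26, 0.749 and 1.31 FPKM in Ang II. They were 0.648, 0.442, 0.663, 0.519 and 0.588 FPKM in QDG. Ang II mice 1, 2, 3 and 5 were above every Control mouse and mouse 4 was inside the Control range, while every QDG mouse was below every Ang II mouse.

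**Figure D2:**
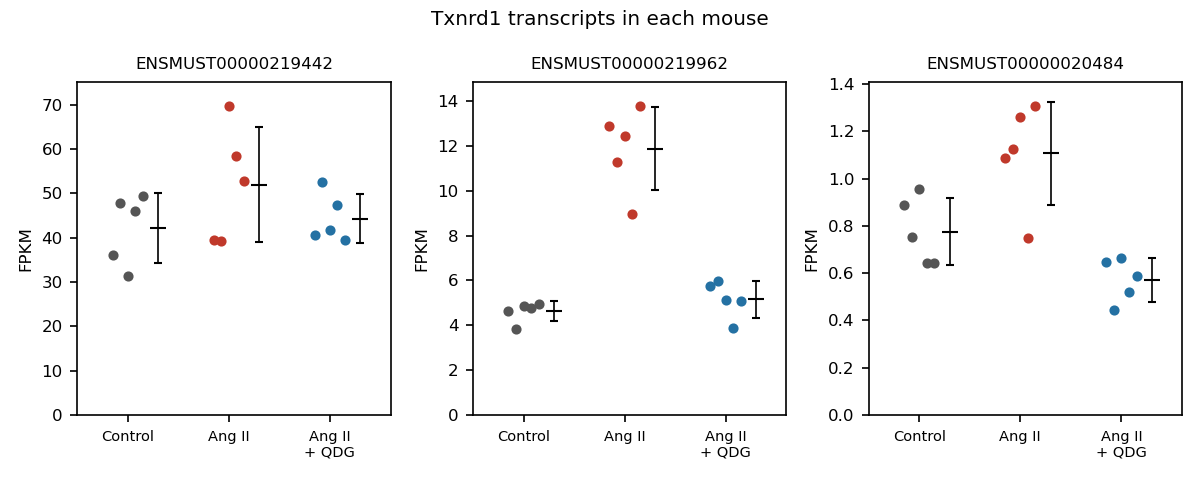
FPKM of the 3 listed Txnrd1 transcripts in each mouse (points, mice 1 to 5 from left to right within a group), with the mean and SD of each group beside the points (the QDG mice are labelled Ang II + QDG); the y axes start at 0 and differ between panels. For ENSMUST00000219962 the Ang II mice lie at 8.98 to 13.8 FPKM, above all other mice, and for ENSMUST00000219442 the groups overlap.

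On the log2(FPKM + 1) scale the mean of ENSMUST00000219962 was 1.19 higher in Ang II than in Control (standard error 0.11) and 1.06 lower in QDG than in Ang II (standard error 0.13). For ENSMUST00000219442 the same differences were 0.28 (standard error 0.20) and −0.20 (standard error 0.18), and for ENSMUST00000020484 they were 0.24 (standard error 0.09) and −0.42 (standard error 0.08), a scale on which so low a transcript shows a small difference. The difference between QDG and Control was 0.13 (standard error 0.11) for ENSMUST00000219962, 0.08 (standard error 0.15) for ENSMUST00000219442 and −0.17 (standard error 0.06) for ENSMUST00000020484. These differences belong to the values that led to the list, so they are given without a test. Ang II vs. Control and QDG vs. Ang II also share the 5 Ang II mice.

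Summed over its transcripts, Txnrd1 had 41.6, 52.5, 37.3, 51.5 and 55.1 FPKM in Control. The sums were 53.5, 51.7, 83.4, 68.1 and 68.0 FPKM in Ang II. They were 47.0, 59.0, 47.5, 51.7 and 45.1 FPKM in QDG. Ang II mice 3, 4 and 5 were above every Control mouse, and mice 1 and 2 were inside the Control range. The group order by mean was Control (47.6 ± 7.70), QDG (50.1 ± 5.53) and Ang II (65.0 ± 12.9, all SD, n = 5), and the first 2 did not differ beyond their spread. The difference of mean log2 values was 0.43 in Ang II vs. Control (standard error 0.16), −0.35 in QDG vs. Ang II (standard error 0.14) and 0.08 in QDG vs. Control (standard error 0.13).

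Srxn1 encodes sulfiredoxin, which repairs peroxiredoxins that peroxide has over-oxidised and so works beside the thioredoxin system. It lies on chromosome 2 (152105516 to 152111376, forward strand), and its RefSeq window (chr2:152105274-152105515, forward strand, printed to the base before the GENCODE start) is shown because it was the only window of a member with TGAGTCA. The capitals mark both matches, 102 and 45 bases before the RefSeq start.
Srxn1 promoter: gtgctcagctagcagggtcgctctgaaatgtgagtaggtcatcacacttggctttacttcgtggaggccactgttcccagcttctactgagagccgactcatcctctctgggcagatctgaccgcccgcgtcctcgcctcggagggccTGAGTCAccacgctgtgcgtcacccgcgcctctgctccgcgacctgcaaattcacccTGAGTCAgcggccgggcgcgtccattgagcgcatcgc

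Srxn1 sums were 13.6, 27.3, 24.8, 30.8 and 29.8 FPKM in Control mice. They were 33.7, 38.5, 35.8, 40.9 and 34.9 FPKM in Ang II mice. They were 20.7, 32.6, 8.62, 24.9 and 27.3 FPKM in QDG mice. Every Ang II mouse was above every mouse of both other groups, and Control mouse 1 and QDG mouse 3 were far below the rest. The log2 fold change was 0.57 in Ang II vs. Control (adjusted p = 0.263, standard error 0.29, limma) and −0.78 in QDG vs. Ang II (adjusted p = 0.192, standard error 0.29, limma), so neither passed the test. In QDG vs. Control it was −0.20 (95% confidence interval −0.82 to 0.42), and 0.095 without QDG mouse 3. Without Control mouse 1 the first value was 0.37 (adjusted p = 0.49), and without QDG mouse 3 the second was −0.48 (adjusted p = 0.284). The protein-coding ENSMUST00000041500 had 23.9 ± 6.87, 33.8 ± 3.11 and 21.4 ± 8.87 FPKM in Control, Ang II and QDG, and the non-coding ENSMUST00000137751, with 17 to 153 reads per mouse, had 1.39 ± 0.940, 2.94 ± 1.04 and 1.49 ± 0.371 FPKM (all SD, n = 5).

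**Figure D3:**
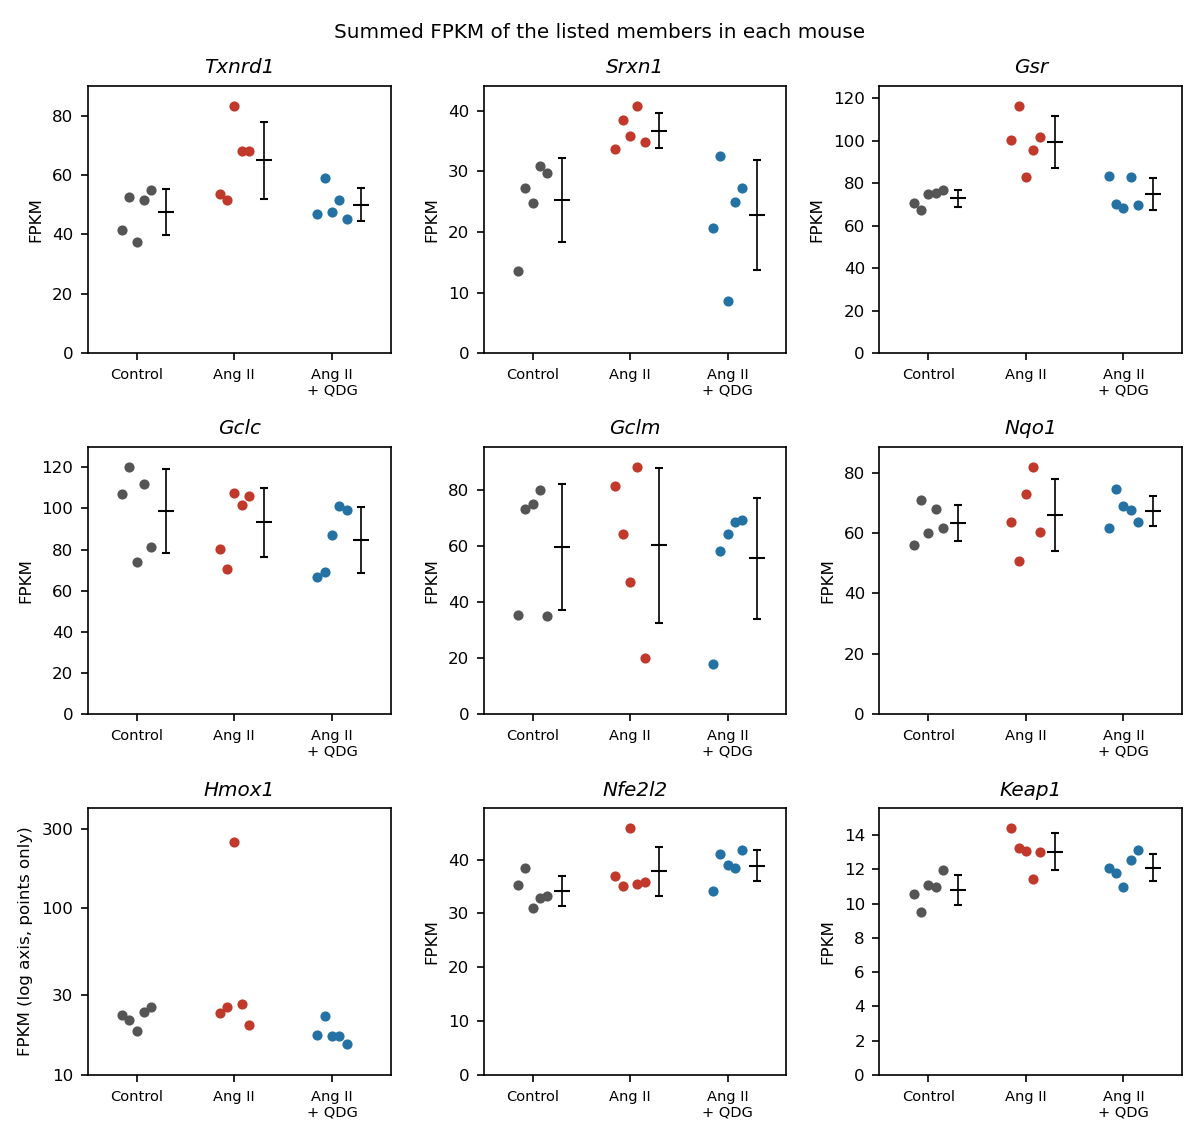
Summed FPKM of the 9 listed members in each mouse (points, mice 1 to 5 from left to right), with the mean and SD of each group beside the points; y axes are linear from 0, except for Hmox1, where the axis is logarithmic and only points are drawn. In Srxn1 and Gsr the 5 Ang II mice are above the 5 Control mice, Gclm spreads widely in every group, and 1 Ang II mouse has 249.7 FPKM of Hmox1.

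Among the glutathione genes, Gsr rose in Ang II and fell in QDG. It encodes glutathione reductase, which uses NADPH to return oxidised glutathione to its reduced form, and lies on chromosome 8 (33652523 to 33698163, forward strand). Its single listed transcript, ENSMUST00000033992, had 70.6, 67.2, 74.7, 75.2 and 76.8 FPKM in Control. It had 100.3, 116.4, 82.9, 95.5 and 101.7 FPKM in Ang II. It had 83.3, 70.3, 68.4, 83.0 and 69.9 FPKM in QDG. Every Ang II mouse was above every Control mouse, and QDG mice 1 and 4 lay just above the lowest Ang II mouse.

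The log2 fold change of Gsr in Ang II vs. Control was 0.43 (adjusted p = 0.0139, standard error 0.09, limma), a ratio of 1.35 (95% confidence interval 1.19 to 1.54) on the FPKM + 1 scale. In QDG vs. Ang II it was −0.40 (adjusted p = 0.0341, standard error 0.09, limma), a ratio of 0.759 (95% confidence interval 0.668 to 0.862). In QDG vs. Control it was 0.04 (95% confidence interval −0.15 to 0.22), a value that was −0.04 with median scaling. The rise held in each alternative setting and without any single mouse. The fall kept its direction throughout, at −0.46 to −0.34, but did not pass the threshold in each setting. Its adjusted p was 0.0927 when only the 2 groups were fitted, 0.0525 with quantile normalization, 0.0579, 0.0799, 0.0513 and 0.0743 without Ang II mouse 1, 2, 4 or 5, and 0.0873, 0.085 and 0.0744 without QDG mouse 2, 3 or 5. With each mouse set to the same median level, the rise of Gsr was 0.34 (adjusted p = 0.0444), and the mitochondrial share of the FPKM was lower in Ang II, as given above. The part of that share in the result was not tested.

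The proximal tubule markers did not pass the test in Ang II vs. Control (0 of 5 called by limma), with sums of 2722 to 2856 FPKM in Control and 2852 to 4042 FPKM in Ang II. Of the 4 podocyte markers 3 were listed and 2 were called higher, and their sum was 75.1 to 83.4 FPKM in Control, 101.4 to 127.2 FPKM in Ang II and 98.0 to 124.8 FPKM in QDG. Of 4 fibroblast markers Pdgfrb alone was called higher, from a low level (0.634 ± 0.634 FPKM in Control and 2.35 ± 0.225 in Ang II, SD, n = 5). Col1a1 had 2.11 ± 0.662 and 3.96 ± 1.73 FPKM, and Col1a2 had 2.14 ± 2.95 and 4.13 ± 5.76. Dcn, the most abundant of the 4, had 14.4 ± 2.84 and 10.5 ± 5.04 FPKM. The median of the summed list was 18.2 FPKM in Control and 15.9 in Ang II. Of 3 smooth muscle markers Tagln alone was called higher (20.3 ± 2.02 and 31.6 ± 8.38 FPKM), and the summed list had 35.8 to 49.4 FPKM in Control and 41.8 to 94.5 in Ang II. The sum of 5 red blood cell markers was 544.6 to 1362 FPKM in Control and 1115 to 1943 in Ang II. Of these 5, 0 were called. Hba-a2 had 47.4 to 269.0 and 327.2 to 462.9 FPKM, and the ranges of the other red blood cell markers overlapped. The sum of 5 macrophage markers was 14.9 to 29.8 FPKM in Control and 11.4 to 25.3 in Ang II. Of these, 4 were tested and 0 called. Adgre1 had 1.26 to 2.17 and 0.763 to 1.19 FPKM, and the means of Cd68 and Lyz2 were also lower in Ang II. Cd14 had 3.25 ± 0.742 and 3.47 ± 1.03 FPKM, and Csf1r had 0.0362 ± 0.0187 and 0.566 ± 0.919 (SD, n = 5). In QDG vs. Ang II limma called 0 markers of each list. The proximal tubule sum was 2700 to 3412 FPKM in QDG, and the red blood cell sum was 1557 to 2818. The part of these markers in the rise and the fall of Gsr was not tested.

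Gclc and Gclm encode the catalytic and the modifier subunit of glutamate-cysteine ligase, the rate-limiting enzyme of glutathione synthesis. Gclc was listed with 1 transcript and ranged over 73.8 to 120.3 FPKM in Control (median 107.0), 70.4 to 107.7 FPKM in Ang II (median 101.7) and 66.7 to 101.0 FPKM in QDG (median 87.3). The 3 ranges overlapped, and no comparison passed the test, with log2 fold changes of −0.08, −0.14 and −0.22 (standard error 0.17 each, adjusted p = 0.832, 0.746 and 0.594 from limma) in Ang II vs. Control, QDG vs. Ang II and QDG vs. Control. Leaving out single mice moved the second from −0.06 (without QDG mouse 1) to −0.23 (without Ang II mouse 2) and the third from −0.14 (without QDG mouse 1) to −0.31 (without Control mouse 3).

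Gclm varied more among mice of a group than between groups. Its sums were 35.3, 73.3, 75.0, 80.2 and 35.0 FPKM in Control. They were 81.7, 64.5, 47.1, 88.5 and 20.0 FPKM in Ang II. They were 17.7, 58.3, 64.4, 68.6 and 69.3 FPKM in QDG. The highest mouse was 2.29, 4.42 and 3.91 times the lowest in the 3 groups, while the same ratio was 1.63, 1.53 and 1.51 for Gclc, its partner in the enzyme. These sums hold the transcripts listed for all 15 mice. With ENSMUST00000137540, which was listed for the Ang II and QDG mice only, QDG mouse 1 was at 29.3 FPKM and the ratio was 2.46 in QDG and 4.17 in Ang II. The log2 fold changes were −0.06, −0.09 and −0.15 with a standard error of 0.45 each, and the 95% confidence interval of the first ran from −1.02 to 0.90, a ratio of 0.493 to 1.87. A difference of that size was not detectable with this spread. The main transcript ENSMUST00000029769 carried this spread with 6361 to 35969 implied reads per mouse. How reads were divided between this and other transcripts, assembled ones without gene names included, was not tested. Of the 6291 exon bases of Gclm, 244 overlap a pseudogene on the same strand and 296 a non-coding gene on the other strand. Reads in the former overlap cannot be told apart by strand, nor those in the latter without it.

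Nqo1 encodes a quinone reductase and is among the best known NRF2 targets. Its sums were 56.0, 71.0, 60.1, 68.2 and 61.8 FPKM in Control. They were 63.6, 50.9, 72.9, 82.0 and 60.5 FPKM in Ang II. They were 61.6, 74.7, 69.1, 67.8 and 63.6 FPKM in QDG. All 3 groups overlapped, and the Ang II mice held both the lowest and the highest value. The log2 fold change in Ang II vs. Control was 0.04 (95% confidence interval −0.19 to 0.28, adjusted p = 0.861 from limma), and it was −0.05 with median scaling and −0.03 with quantile normalization. It was 0.04 (adjusted p = 0.887) in QDG vs. Ang II and 0.09 (adjusted p = 0.761) in QDG vs. Control.

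Hmox1 encodes haem oxygenase-1, which breaks haem down to biliverdin, iron and carbon monoxide. Its levels were 22.9, 21.3, 18.3, 23.7 and 25.6 FPKM in Control. They were 23.7, 25.5, 249.7, 26.8 and 19.9 FPKM in Ang II. They were 17.4, 22.7, 17.2, 17.2 and 15.4 FPKM in QDG. Ang II mouse 3 stood alone at 11.4 times the median of the other 14 mice, with 30993 reads, and the other 4 Ang II mice were near the Control level. QDG mice 1, 3, 4 and 5 were below every mouse of both other groups.

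The log2 fold change of Hmox1 was 0.76 in Ang II vs. Control (adjusted p = 0.415, standard error 0.52, limma) and −1.07 in QDG vs. Ang II (adjusted p = 0.324, standard error 0.52, limma). Without Ang II mouse 3 they were 0.10 (adjusted p = 0.689) and −0.40 (adjusted p = 0.12, standard error 0.12), so this mouse set the size of both. In QDG vs. Control the value was −0.30 (adjusted p = 0.832), and without that mouse in the shared estimate of the spread the adjusted p was 0.234. The same mouse also had the highest Txnrd1 sum of all 15 (83.4 FPKM, next 68.1) and the highest Nfe2l2 sum (45.9 FPKM, next 41.8). From the top it ranked 3 for Srxn1, Gclc and Nqo1, 4 for Keap1, 7 for Gsr and 11 for Gclm. Its sum over the 5 macrophage markers was 11.4 FPKM, the lowest of 15, and its red blood cell markers ranked 8, at 1526 FPKM. The low macrophage sum was not particular to that list, because this mouse was also lowest for the fibroblast markers. It ranked 14 for the endothelium and adipocyte markers. Its ranks in the other lists with a listed marker ran from 4 (distal convoluted tubule) to 12 (lymphocyte). The part of any cell type in its Hmox1 level was not tested.

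Nfe2l2 and Keap1, the sensor pair itself, had small differences. Nfe2l2 had 35.3, 38.4, 31.0, 32.9 and 33.2 FPKM in Control. It had 37.0, 35.1, 45.9, 35.5 and 35.9 FPKM in Ang II. It had 34.2, 41.0, 39.0, 38.4 and 41.8 FPKM in QDG. Apart from Ang II mouse 3 the Ang II values lay inside the Control range, and 4 of 5 QDG mice were above every Control mouse. The log2 fold changes were 0.14 (adjusted p = 0.337), 0.04 (adjusted p = 0.854) and 0.18 (adjusted p = 0.331 from limma) in Ang II vs. Control, QDG vs. Ang II and QDG vs. Control, and none passed the test. Without Ang II mouse 3 the first was 0.07 and the second 0.11. The values were 0.05, 0.05 and 0.10 with median scaling, and 0.05, 0.11 and 0.16 with quantile normalization.

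Keap1 sums were 10.6, 9.51, 11.1, 11.0 and 11.9 FPKM in Control. They were 14.4, 13.3, 13.1, 11.4 and 13.0 FPKM in Ang II. They were 12.1, 11.8, 11.0, 12.5 and 13.1 FPKM in QDG. In Ang II 4 of 5 mice were above every Control mouse. The log2 fold change was 0.25 (adjusted p = 0.0617, standard error 0.07, limma), which missed the threshold. Without Ang II mouse 4 it was 0.29 and passed (adjusted p = 0.0397), while with median scaling it was 0.16 (adjusted p = 0.278). In QDG vs. Ang II it was −0.10 (adjusted p = 0.55), and in QDG vs. Control it was 0.15 (adjusted p = 0.368).

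The 4 listed Keap1 transcripts, all protein-coding, varied more from mouse to mouse than their sum. ENSMUST00000049567 had 0.702 to 5.10 FPKM in Control, 1.40 to 6.31 FPKM in Ang II and 2.49 to 6.40 FPKM in QDG. ENSMUST00000194542 was at 0.667 to 1.33 FPKM in Control but reached 5.46 FPKM in Ang II mouse 1, where ENSMUST00000049567 was lowest of its group. ENSMUST00000193982 was close to 0 in QDG mice 4 and 5 (0.0066 FPKM each, with a lowest count of 1 read) and at 0.531 to 1.16 FPKM in the other 3. The highest sum was 1.26 times the lowest within Control, against 7.27 times for ENSMUST00000049567. The steadiest transcript, ENSMUST00000164812, had 5.22 ± 0.608, 5.34 ± 1.06 and 5.76 ± 1.05 FPKM in the 3 groups (SD, n = 5). In the fit of 28812 transcripts limma called 0 Keap1 transcripts in any comparison, with 1, ENSMUST00000193982 in QDG vs. Ang II, at an unadjusted p under 0.05. Of all transcripts 0.691% were called in Ang II vs. Control, 0.0972% in QDG vs. Ang II and 0.0243% in QDG vs. Control, and 15.9%, 11.3% and 10% passed the unadjusted threshold. Keap1 exons overlap an antisense gene over 510 of 4693 bases, and reads there cannot be told apart without strand.

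Counted over the 8 tested members other than Txnrd1, 6 had a positive log2 fold change in Ang II vs. Control and 2 a negative one, with a median of 0.20 against 0.08 over all genes, of which 64.8% were positive. Only Gsr was called, 1 of 8, where 5.94% of all genes tested were called and 4.95% were called higher. At an unadjusted p under 0.05 there were 2, Gsr and Keap1, where 22.7% of all genes passed. In Gsr and Srxn1, 2 of 8, every Ang II mouse was above every Control mouse, where 6.49% of all genes were so separated.

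Against Ang II, the QDG mice had 2 members with a positive log2 fold change and 6 with a negative one, with a median of −0.12 against −0.02 over all genes, of which 46.3% were positive. Only Gsr was called lower, where 1.29% of all genes were, and 2, Gsr and Srxn1, passed an unadjusted p under 0.05, where 16.4% did. Only Srxn1 had every QDG mouse below every Ang II mouse, where 3.44% of all genes did. Against Control, 4 members were positive and 4 negative, with a median of −0.06 against 0.06 over all genes, of which 62.5% were positive. There limma called 0 at the adjusted threshold, where 0.129% of all genes were called, and 1 (Nfe2l2) at an unadjusted p under 0.05, where 14.4% were. In that comparison 0 of 8 were separated without overlap, where 3.64% of all genes were. At the study's threshold, a fold change of at least 2 with an unadjusted p under 0.05, 0 of the 8 sums passed in each comparison, where 1.05%, 0.816% and 0.727% of all genes passed. The study applied that threshold to transcripts, and here it was applied to gene sums on the log2(FPKM + 1) scale, so the counts are not alike.

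**Figure D4:**
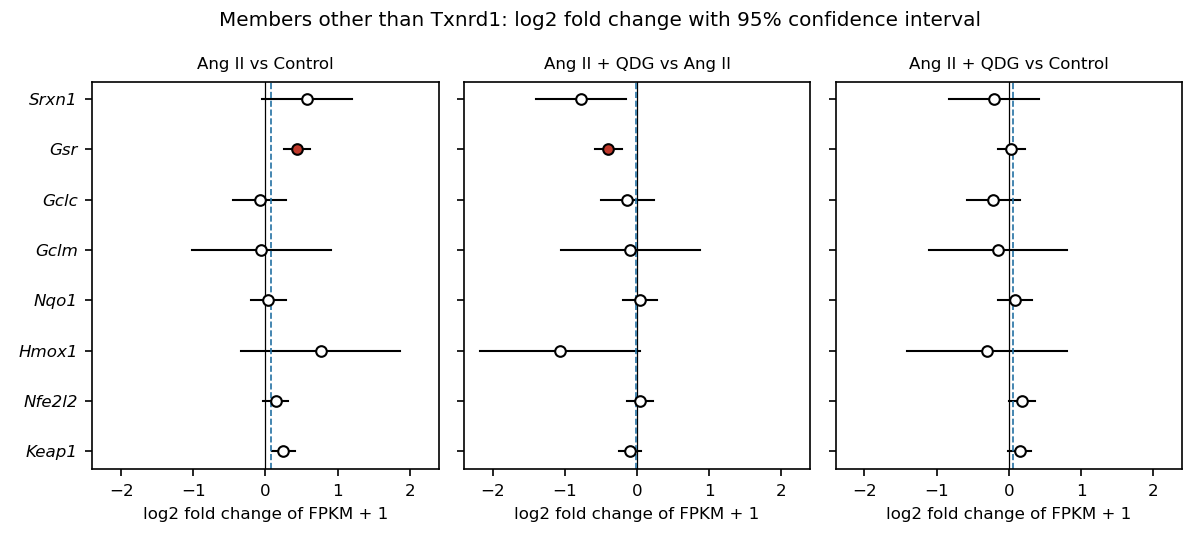
Log2 fold change of FPKM + 1 with its 95% confidence interval from limma for the 8 tested members other than Txnrd1, 1 panel per comparison; filled points passed the adjusted threshold, the solid line is 0 and the dashed line is the median of all genes tested. Gsr is filled in Ang II vs. Control at 0.43 and in QDG vs. Ang II at −0.40, and the intervals of Gclm and Hmox1 are the widest.

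Of 52 further genes of the NRF2 system 46 were tested, grouped as regulators, thioredoxin system, glutathione synthesis and use, NADPH supply, haem and iron handling, and detoxification and efflux. In Ang II vs. Control 29 were positive and 17 negative with a median of 0.06, where 64.8% of all genes were positive. Mafk was called higher and Prdx1 lower, 1 of 46 each, where 4.95% and 0.994% of all genes were. At an unadjusted p under 0.05 there were 7 higher and 1 lower, where 17.9% and 4.83% of all genes were. Mafk, a small MAF partner of NRF2, rose from 10.6 ± 0.821 to 14.2 ± 1.84 FPKM (SD, n = 5 each), with a log2 fold change of 0.39 (adjusted p = 0.0259 from limma). Its Control mice lay at 9.48 to 11.7 FPKM and its Ang II mice at 11.1 to 16.1 FPKM, and only Ang II mouse 4 was within the Control range. Prdx1, a peroxiredoxin that thioredoxin reduces and that sulfiredoxin repairs, fell from 392.9 ± 25.3 to 314.6 ± 37.4 FPKM (SD, n = 5 each), and its log2 fold change was −0.33 (adjusted p = 0.0286 from limma). All 5 Ang II mice were below all 5 Control mice for Prdx1, a separation that 1.42% of all genes showed. The rise of Mafk missed the threshold with quantile normalization (adjusted p = 0.0716) and median scaling (0.0787), and both calls were lost when only the 2 groups were fitted (0.0584 and 0.0705). Leaving out Control mouse 1 or 3 or Ang II mouse 2 or 5 ended both calls, Ang II mouse 1 ended that of Mafk and Control mouse 4 that of Prdx1, with adjusted p-values from 0.0522 to 0.0699.

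In QDG vs. Ang II limma called 0 of the 46 genes, where 1.81% of all genes were called. At an unadjusted p under 0.05 there were 3 higher and 11 lower, where 6.01% and 10.4% of all genes were, and the median was 0.0022. By role, 0 of 6 genes of NADPH supply and 8 of 10 genes of detoxification and efflux had a log2 fold change above 0, where 46.3% of all genes did, and the other role groups were divided. Some of these values were close to 0, such as −0.0062 for Idh1 and 0.05 for Ugdh. The smallest unadjusted p belonged to Pgd, which makes NADPH in the pentose phosphate pathway (64.3 ± 3.91 FPKM in Ang II and 54.2 ± 3.91 in QDG, adjusted p = 0.0794), followed by the efflux pump Abcc2 (53.3 ± 11.1 and 39.1 ± 2.70 FPKM, adjusted p = 0.0811). Mafk (14.2 ± 1.84 and 11.5 ± 0.923 FPKM, adjusted p = 0.13), the malic enzyme Me1 (163.9 ± 13.3 and 140.3 ± 14.6 FPKM, adjusted p = 0.161) and the epoxide hydrolase Ephx1 (21.7 ± 5.78 and 32.0 ± 6.08 FPKM, adjusted p = 0.174) came next (all SD, n = 5, limma).

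In QDG vs. Control limma again called 0 of 46, with 4 higher and 4 lower at an unadjusted p under 0.05, where 10.7% and 3.72% of all genes were, and a median of 0.02. Me1 had a log2 fold change of −0.32 (adjusted p = 0.106) and Ephx1 one of 0.78 (adjusted p = 0.118). The ferritin heavy chain Fth1 had −0.16 (adjusted p = 0.186), the related transcription factor Nfe2l1 had 0.47 (adjusted p = 0.198) and the glutathione transferase Gsta4 had 0.42 (adjusted p = 0.229, all from limma).

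**Figure D5:**
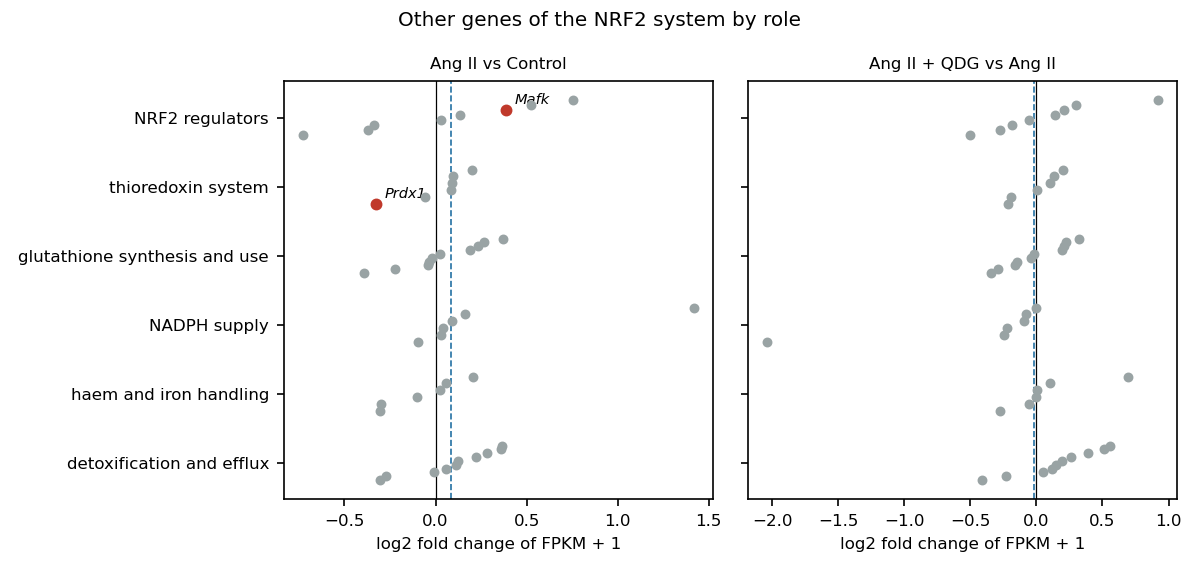
Log2 fold change of FPKM + 1 for the 46 further NRF2 system genes by role, 1 point per gene, in Ang II vs. Control (left) and QDG vs. Ang II (right); the solid line is 0, the dashed line the median of all genes tested, and filled red points passed the adjusted threshold. Mafk at 0.39 and Prdx1 at −0.33 are the 2 red points, both on the left, and the 6 genes of NADPH supply are at or below 0 on the right.

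The genes most like Txnrd1 were ranked by Pearson's r with the Txnrd1 sum over the 15 mice, on the log2(FPKM + 1) scale, among 12371 genes. As a description, the first 5 were Ell2 (r = 0.911, Spearman's rho = 0.75), Olfr1033 (0.872 and 0.761), Pdlim2 (0.852 and 0.796), Prmt7 (0.849 and 0.736) and Ubtd1 (0.841 and 0.779), and the 15 points share the group differences and the library of each mouse. Ell2 had 10.5 ± 2.0, 13.2 ± 2.91 and 10.6 ± 0.796 FPKM in Control, Ang II and QDG (SD, n = 5), and its r was 0.875 with the group means removed.

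The order of the members depended on the measure. By Pearson's r Hmox1 came first, at rank 157 (0.689), then Srxn1 at rank 649 (0.568) and Nqo1 at rank 1069 (0.509), and Ang II mouse 3 held the highest value of both Hmox1 and Txnrd1. By Spearman's rho Srxn1 came first (0.775), above Ell2, Olfr1033 and Prmt7, then Hmox1 (0.586) and Nqo1 (0.55). With the group means removed Nqo1 had the highest r of the members (0.676), then Hmox1 (0.605), and Srxn1 had 0.337. Gsr, the called member, was at rank 2171 (0.393), and its r was −0.46 with the group means removed.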

How the data were processed

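Renal RNA was depleted of rRNA and sequenced paired-end, 1 library per mouse. The submitters' processing notes name mm10 and limma; aligner, quantifier and counting strand are not given in the sources used here. The deposited transcript values were taken as FPKM because value times transcript length was a whole multiple (within 0.1 read) of 1 constant per mouse for 98.7% to 98.8% of values under 200 reads. Files list 41477 (Control) or 42310 transcripts, in the latter with at least 0.5 FPKM as the larger mean of the Ang II and Ang II + QDG groups. The 28871 annotated transcripts listed in all 15 were summed per gene with GENCODE M21, and 12432 assembled transcripts without gene names were not used. limma 3.58.1 (R 4.3.3), with trend, tested log2(FPKM + 1) for the 12372 genes reaching 1 FPKM in 5 or more mice, in 1 fit of 3 groups with 12 residual degrees of freedom, and was tested on simulated data. A pseudocount of 1 understates changes of low transcripts. Replicates are separate mice. Members and lists were chosen with earlier results of these data known. Named were all members, every listed Txnrd1 transcript, transcripts of other members with at least 0.1 of the sum in a group, pathway genes called in a comparison or else the 5 smallest p, and the 5 genes most like Txnrd1. The single listed transcripts of Gclc (ENSMUST00000034905), Nqo1 (ENSMUST00000003947) and Hmox1 (ENSMUST00000005548) are given as the values of the gene. ENSMUST00000102672, with 90.1% to 93.6% of the Nfe2l2 sum, is not given apart from that sum. ENSMUST00000137751, ENSMUST00000137540, Idh1 and Ugdh were named after their values were seen. Alternatives were pseudocount, filter, scaling, transcript sets, 2-group fits, trend and each mouse left out.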

Additional observations from a re-analysis of the deposited data

Results flagged for a closer look

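Of 36 groups of 5 mice examined (9 gene sums and 3 Txnrd1 transcripts in 3 groups), 4 held 1 mouse whose gap to the nearest other exceeded 0.71 of the group's range, and chance gives about 1 in 20 groups. Hmox1 was at 249.7 FPKM in Ang II mouse 3 and at 22.7 FPKM in Ang II + QDG mouse 2, the highest of their groups. Nfe2l2 was at 45.9 FPKM in Ang II mouse 3, also the highest. Gclm was at 17.7 FPKM in Ang II + QDG mouse 1, the lowest.

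The non-coding Gclm transcript ENSMUST00000137540 was listed for the Ang II and Ang II + QDG mice only and was left out of the sums. It reached 11.5 FPKM (612 reads) in Ang II + QDG mouse 1, the mouse in which the main Gclm transcript was lowest (16.3 FPKM), with 3.46 FPKM in mouse 4 of that group and 1.21 FPKM in Ang II mouse 5, and was at 0.0862 FPKM or at 0 in the other 7 of these 10 mice. With this transcript added, the Gclm sum of that mouse was 29.3 FPKM and its gap to the nearest mouse was 0.681 of the range, under the limit of 0.71. A count of 3 reads would be 0.0565 FPKM in the first mouse.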

How the results depend on the processing

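QDG stands for the Ang II + QDG mice. In Ang II vs. Control 1 member was called in each alternative, except without Ang II mouse 4 (leave-one-out range 1 to 2). In QDG vs. Ang II it was 0 with only the 2 groups fitted and 0 with quantile normalization (leave-one-out range 0 to 1: 0 without Ang II mouse 1, 2, 4 or 5 or QDG mouse 2, 3 or 5), and in QDG vs. Control 0 throughout. Pathway calls in Ang II vs. Control were 2, and 1 with median scaling, 1 with quantile normalization and 0 with the 2 groups (leave-one-out 0 to 4: 4 without Control mouse 2, 1 without Control mouse 4 and 0 without Control mouse 1 or 3 or Ang II mouse 2 or 5); in both other comparisons they were 0 (leave-one-out 0 to 1), with 1 without Ang II mouse 1, 3 or 4 in QDG vs. Ang II and without Control mouse 2 in QDG vs. Control. The Txnrd1 sum differed by 0.34 to 0.51, by −0.43 to −0.26 and by −0.0016 to 0.14 without single mice in the 3 comparisons, the negative value in QDG vs. Control without Control mouse 3. ENSMUST00000219962 ranged from 1.13 to 1.27 and from −1.15 to −0.98.

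Values near 0 changed sign. In Ang II vs. Control these were Gclc without Ang II mouse 2 (0.0175; leave-one-out −0.18 to 0.0175), Gclm without Ang II mouse 5 (0.288) or Control mouse 2 (0.038), 3 (0.046) or 4 (0.070) (leave-one-out −0.24 to 0.29), and Nqo1 with median scaling (−0.048) and quantile normalization (−0.029) and without Ang II mouse 4 (−0.039) or Control mouse 1 (−0.00012) (leave-one-out −0.039 to 0.13). In QDG vs. Ang II they were Gclm with missing transcripts at 0 (0.044) or without Ang II mouse 1 (0.057) or 4 (0.085) or QDG mouse 1 (0.27) (leave-one-out −0.44 to 0.27), and Nqo1 without Ang II mouse 2 (−0.043; leave-one-out −0.043 to 0.13). In QDG vs. Control they were Gclm with missing transcripts at 0 (0.0026) or without QDG mouse 1 (0.21; leave-one-out −0.32 to 0.21), Gsr with median scaling (−0.042) or without QDG mouse 1 (−0.0026) or 4 (−0.0015) (leave-one-out −0.0026 to 0.067) and Srxn1 without QDG mouse 3 (0.095; leave-one-out −0.40 to 0.095). The cause was not tested.

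Over all genes, calls in Ang II vs. Control were 612 higher and 123 lower as deposited, 227 and 268 with quantile normalization and 200 and 270 with median scaling; in QDG vs. Ang II they were 65 and 159, 97 and 97, and 72 and 112, and in QDG vs. Control 12 and 4, 8 and 7, and 8 and 12. Fitting 2 groups gave 460, 68 and 4 calls in the 3 comparisons. Other counts moved by over 1.5 times were 408 and 6 with protein-coding transcripts only, in Ang II vs. Control and QDG vs. Control, and 80 with missing transcripts at 0 in the latter. Without single mice the lowest counts were 338 in Ang II vs. Control (Control mouse 1) and 53 in QDG vs. Ang II (Ang II mouse 2), and QDG vs. Control ran from 0 (Control mouse 4) to 110 (Control mouse 2).

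No paired analysis was possible because the replicate numbers follow the order of the samples and pair no mice. Depth did not limit the abundant members, with 982 or more reads a mouse for the main transcript of each member. It limits the scarcer transcripts: ENSMUST00000020484 of Txnrd1 (112 to 334 reads), ENSMUST00000137751 of Srxn1 (17 to 153), and ENSMUST00000193982 (1 to 435), ENSMUST00000194542 (171 to 1363) and ENSMUST00000049567 (181 to 1540) of Keap1.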
